A study of Mus musculus with 40 samples.

Results

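The genes described here are 37 genes of a growth programme: Myc, the enzymes of polyamine synthesis, and proteins that make ribosomes. They were chosen by name, with earlier results of these data known, and every probe that the platform's gene table assigns to these symbols was considered. Levels and calls are those of the brightest probe of a gene that was detected on enough arrays, except where further probes are named. The table lists 64 probes for 35 of the 37 genes, of 45281 probes on the array. Amd1 and Fbl have no listed probe and were not analysed here. Utp20, Nop16 and Wdr12 were detected on too few arrays to be tested. The tested set therefore held 32 of the 37 genes, among 10730 genes tested in all. Of these 32, 28 were detected on all 40 arrays, while Rrs1 was detected on 37, Nolc1 on 31, Dkc1 on 10 and Sms on 5.

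Myc is a transcription factor that resting T cells switch on when their antigen receptor is engaged, and it drives cell growth. Its known targets include the genes for polyamine synthesis and for ribosome biogenesis. Polyamines are small cations that bind nucleic acids, and Odc1, Amd1, Srm and Sms are enzymes of their synthesis. Ribosomes are built in the nucleolus: RNA polymerase I transcribes the ribosomal DNA, small nucleolar particles of the box C/D and box H/ACA classes guide chemical changes of the transcript, and separate sets of processing factors assemble the small and the large subunit.

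RNA of mouse CD4 T cells was measured on bead arrays of the Illumina MouseWG-6 v2 type. C57BL6 mice, wild type (WT) or Malt1-/- and 8 to 12 weeks old, gave the naive cells, positive for CD4 and CD62L, from spleen and lymph nodes. Malt1 encodes a scaffold and protease between antigen receptors and NF-kappaB. The cells were induced to become Th17 or Th1 helper cells and taken at 48 h or 72 h, which gave 8 groups: WT Th17, Malt1-/- Th17, WT Th1 and Malt1-/- Th1, each at 48 h and at 72 h, with 5 arrays each. The labels used here do not say how the cultures were stimulated, which part of Malt1 is missing, or whether a replicate was its own animal. The p-values therefore reflect only how much these samples varied, which may be technical variation. Levels are background-corrected, quantile-normalised log2 signals, given as array values, ranges or group means. An SD, where given, is that of the 5 arrays of a group. Differences are in log2 units, each with its SE (standard error) from a limma fit, and a gene was called when its Benjamini-Hochberg adjusted p over the 10730 genes was under 0.05. Each probe has its own response, so levels were compared between groups and not between genes.

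The probe for Malt1 checked the labels. Its Malt1-/- minus WT difference was called lower each time, at -3.85 ± 0.30 (SE) in Th17 cells at 48 h, -4.75 ± 0.30 at 72 h, -4.10 ± 0.30 in Th1 cells at 48 h and -4.92 ± 0.30 at 72 h. The lineages carried their markers. Il17a ran from 9.53 to 12.81 on the 10 WT Th17 arrays and from 4.50 to 5.61 on the 10 WT Th1 arrays, and Ifng from 5.09 to 8.31 and from 13.64 to 15.06. Probes detected per array numbered 14640 to 17409. Of the 40 arrays, 8 lay closer to the mean of another group than to their own: WT Th17 48 h replicate 5, WT Th17 72 h replicates 4 and 5, Malt1-/- Th17 72 h replicate 2, WT Th1 48 h replicate 1, Malt1-/- Th1 48 h replicate 2, WT Th1 72 h replicate 4 and Malt1-/- Th1 72 h replicate 2. With 5 arrays a group, their number sets the precision.

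The mean log2 signal of the 32 tested genes was lower at 72 h than at 48 h in each lineage and genotype. In WT Th17 cells it had a lowest, median and highest value of 9.93, 10.33 and 10.40 at 48 h and of 9.14, 9.87 and 9.95 at 72 h. In WT Th1 cells these were 10.56, 10.64 and 10.83 at 48 h and 9.77, 9.89 and 10.59 at 72 h. In WT Th17 cells 72 h replicates 4 and 5 stood above 48 h replicate 5, and in WT Th1 cells 72 h replicate 4 stood above 48 h replicates 1 and 2. Of these arrays, all but WT Th1 48 h replicate 2 are among the 8 named above. The Malt1-/- arrays ran from 10.19 to 10.54 at 48 h and from 9.74 to 10.23 at 72 h in Th17 cells, and from 10.52 to 10.73 and 9.93 to 10.51 in Th1 cells. The SD between arrays was 0.36 and 0.35 in the WT 72 h groups of Th17 and Th1 cells, against 0.19 and 0.11 in the same cells at 48 h. In bulk RNA, fewer cells of a type and less RNA of these genes per cell cannot be told apart.

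**Figure D1:**
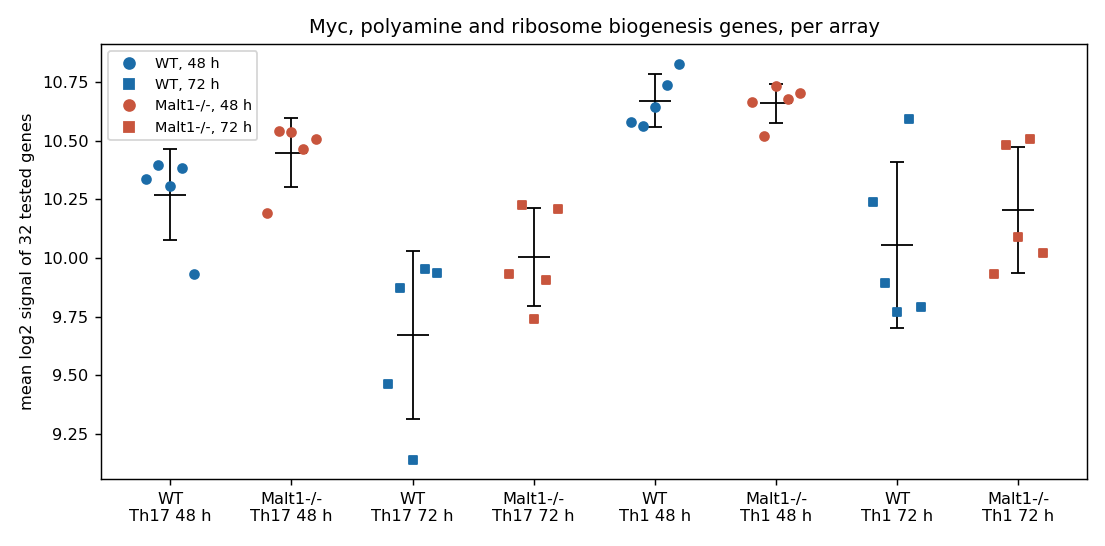
Mean log2 signal of the 32 tested genes on each of the 40 arrays (points), by group, with the group mean and SD (bars, n = 5). The 72 h arrays (squares) lie lower than the 48 h arrays (circles) on average in all 4 pairs of groups, and the WT 72 h groups are the most spread, with SDs of 0.36 and 0.35.

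From 48 h to 72 h, 15 of the 32 tested genes fell and 0 rose in WT Th17 cells, and 13 fell and 0 rose in WT Th1 cells. Over all genes, 7.36% were called lower and 4.97% higher in WT Th17 cells, and 4.92% lower and 5.57% higher in WT Th1 cells. The median difference of the 32 genes was -0.61 in Th17 cells (all genes -0.01) and -0.54 in Th1 cells (all genes 0.00), and 31 of the 32 differences were below 0 in each lineage. The 9 genes Srm, Polr1b, Nop56, Rrp9, Nhp2, Nob1, Nop2, Wdr74 and Ftsj3 fell in both, which is 60% of the Th17 calls and 69.2% of the Th1 calls. Over all genes, 254 were called lower in both, of 790 in Th17 and 528 in Th1 cells. These comparisons share no arrays, but the fit shares its variance estimates between them. Groups did not overlap, with 72 h lower, for 4 of the 32 genes in WT Th17 cells (2.88% of all genes) and 2 in WT Th1 cells (1.17% of all genes).

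These calls rest on a spread estimated over all 8 groups. The mean of the 32 genes varied more between arrays in the WT 72 h groups than in any other group. Srm had SDs of 0.28 at 48 h and 0.81 at 72 h in WT Th17 cells, and Ncl 0.23 and 0.95 in WT Th1 cells. The SEs and p-values given for these comparisons may therefore be too small. With the 10 arrays compared fitted alone, 0 of the 32 genes was called in either WT lineage and 1 gene of all 10730 in each, the differences being unchanged, with adjusted p-values of 0.12 for Srm in Th17 cells and 0.0737 for Rrp9 in Th1 cells. Median scaling in place of quantile normalisation left 3 called in Th17 cells and 7 in Th1 cells, and moved the share of higher genes among all calls from 40.3% to 80.7% in Th17 cells (53.1% to 51.4% in Th1 cells). With the 8 arrays named above left out, 23 were called in each lineage, where leaving out such arrays makes groups more distinct by construction. Apart from the 10-array fits of WT cells over time, the share of all genes called under an alternative is not given here. A change of count under an alternative was thus not read as particular to the 32 genes. Without WT Th17 72 h replicate 3, whose mean of 9.14 was the lowest of any array, 9 were called. In Th1 cells 4 were called without WT 48 h replicate 5, 3 without 72 h replicate 2, 5 without replicate 3, 21 without replicate 4 and 6 without replicate 5.

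**Figure D2:**
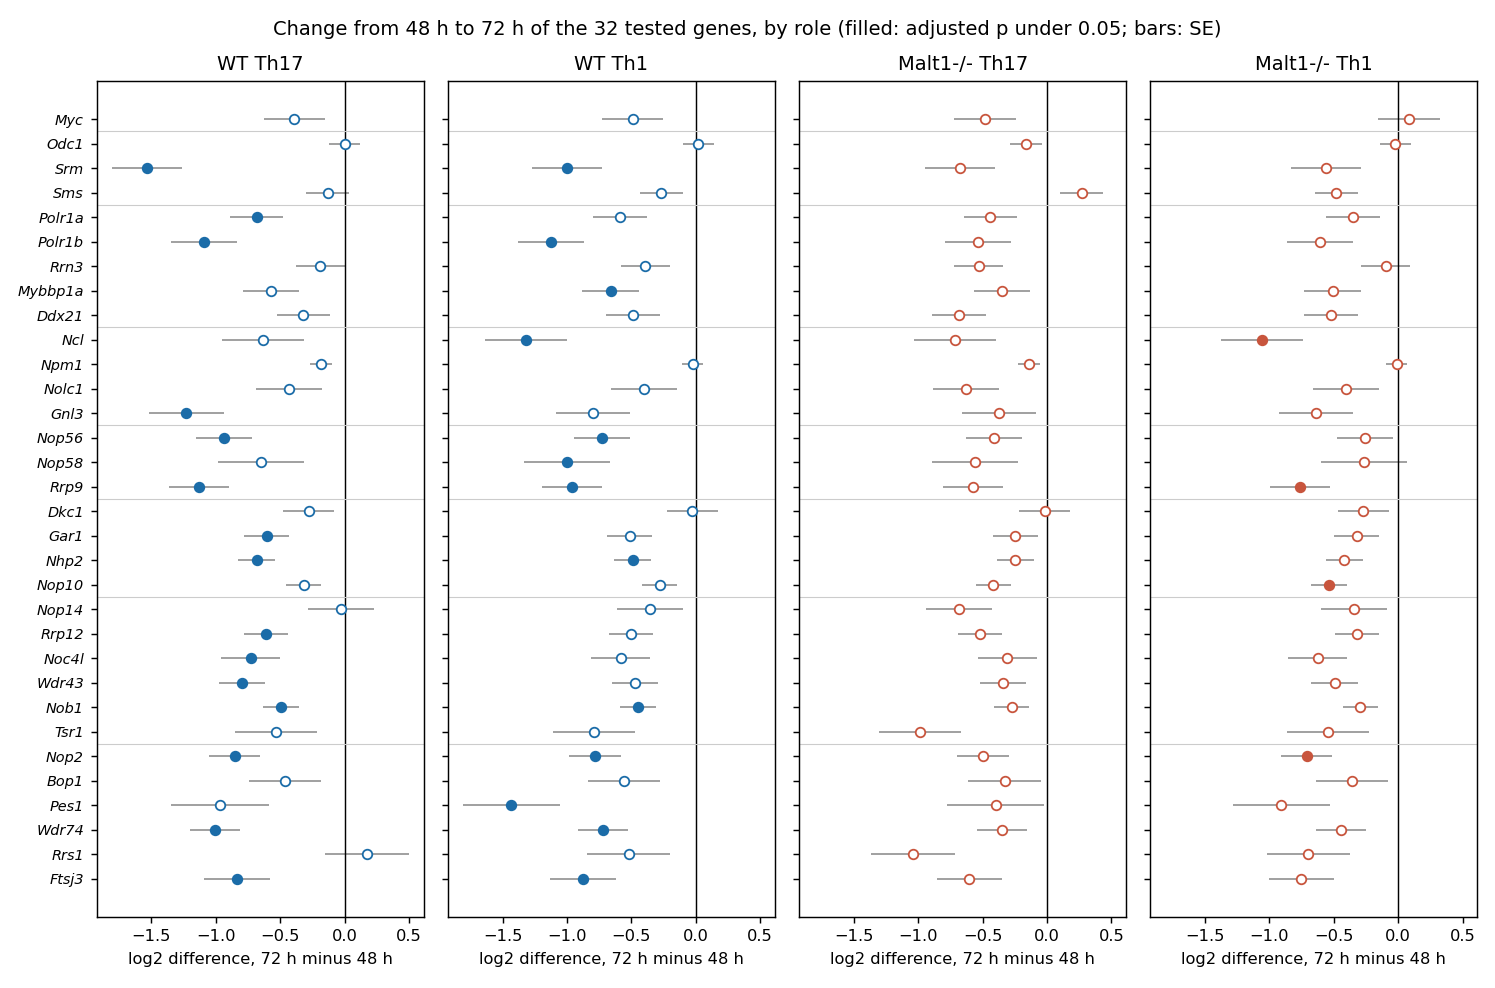
Log2 difference from 48 h to 72 h of the 32 tested genes (points, with SE bars), grouped by role with grey lines, in the 4 combinations of genotype and lineage. Filled points were called. 31 of 32 points lie left of 0 in each panel, while 15, 13, 0 and 4 were called.

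Among the genes of polyamine synthesis, Srm, spermidine synthase, fell furthest of the 32 in WT Th17 cells. Its log2 signals on the 5 arrays were 12.25, 12.67, 12.19, 12.32 and 11.89 at 48 h and 10.38, 11.27, 9.51, 10.96 and 11.54 at 72 h, and the groups did not overlap. The difference was -1.53 ± 0.27, 2.89-fold lower (adjusted p = 0.00154). In WT Th1 cells Srm went from 13.02, 13, 12.28, 12.62 and 13.55 to 11.90, 11.75, 11.95, 12.55 and 11.32, a difference of -1.0 ± 0.27 (adjusted p = 0.0176). There the highest 72 h array, replicate 4, lay above the lowest 48 h array. Odc1, ornithine decarboxylase, the rate-limiting enzyme of the pathway, differed by 0.02 ± 0.12 in WT Th1 cells (adjusted p = 0.95), and its adjusted p in WT Th17 cells was 0.998. The 5 values of Odc1 in WT Th17 cells ran from 13.72 to 13.89 at 48 h and from 13.46 to 14.04 at 72 h. Sms, spermine synthase, was detected on 5 arrays in all and was called in no comparison.

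Myc itself was called in none of the time comparisons. Its 5 values ran from 7.11 to 7.99 at 48 h and from 6.65 to 7.81 at 72 h in WT Th17 cells, a difference of -0.39 ± 0.24 (adjusted p = 0.297). In WT Th1 cells they ran from 7.81 to 8.63 and from 6.62 to 8.28 (-0.49 ± 0.24, adjusted p = 0.184). In Malt1-/- cells Myc differed by -0.48 ± 0.24 in Th17 and 0.08 ± 0.24 in Th1 cells, with adjusted p = 0.357 and 0.891. The groups overlapped in all 4 comparisons.

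Of the 5 genes of ribosomal DNA transcription, Polr1b, a large catalytic subunit of RNA polymerase I, fell in both WT lineages. In Th17 cells it stood at 9.38, 9.49, 9.36, 9.47 and 9.26 at 48 h and at 8.15, 8.37, 7.31, 8.78 and 8.89 at 72 h, without overlap (-1.09 ± 0.26, 2.13-fold lower, adjusted p = 0.00683). In Th1 cells it stood at 10.14, 10.21, 9.73, 9.87 and 10.46, then at 9.29, 8.35, 8.49, 9.94 and 8.73 (-1.12 ± 0.26, adjusted p = 0.00675). Only 72 h replicate 4 overlapped the 48 h arrays in Th1 cells. Polr1a, the largest subunit of the polymerase, was called in Th17 cells (-0.68 ± 0.21) and not in Th1 cells (-0.59 ± 0.21, adjusted p = 0.0643). Mybbp1a, a nucleolar Myb-binding protein, was called in Th1 cells (-0.66 ± 0.22) and not in Th17 cells (-0.57 ± 0.22, adjusted p = 0.0766). Its Th1 call was lost in 12 of 21 alternatives. Rrn3, the initiation factor that recruits the polymerase, and Ddx21, an RNA helicase of the nucleolus, were called in neither, with differences of -0.19 and -0.32 in Th17 cells and -0.39 and -0.49 in Th1 cells.

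Among the 4 nucleolar chaperones and related proteins, Gnl3 (nucleostemin, a GTPase of dividing cells) fell in WT Th17 cells and Ncl (nucleolin, a major nucleolar RNA-binding protein) in WT Th1 cells. Neither was called in the other WT lineage, where the means were also lower at 72 h. Mean Gnl3 was 9.22 (SD 0.17) then 8.42 (SD 0.70) in Th1 cells, and mean Ncl 10.95 (SD 0.42) then 10.31 (SD 0.62) in Th17 cells. Whether a change over time differed between lineages was not tested for any member. Gnl3 went from 8.98, 8.75, 8.52, 9.42 and 7.64 to 7.30, 7.90, 6.54, 7.93 and 7.51 in Th17 cells (-1.23 ± 0.29, adjusted p = 0.0069), with only 48 h replicate 5 within the range of the 72 h arrays. Ncl went from 11.03, 10.83, 11.41, 11.26 and 11.30 to 9.95, 9.51, 8.93, 11.41 and 9.43 in Th1 cells (-1.32 ± 0.32, 2.50-fold lower, adjusted p = 0.00967). The 72 h replicate 4 was as high as any 48 h array, and the other 4 lay below all of them. Npm1, nucleophosmin, had differences of -0.18 ± 0.08 in WT Th17 and -0.03 ± 0.08 in WT Th1 cells, neither called. Its signals lay between 15.03 and 15.48 on all 40 arrays.

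All 3 tested proteins of the box C/D particles were called in WT Th1 cells, and Nop56 and Rrp9 in WT Th17 cells. Rrp9 belongs to the particle that starts the cutting of the small-subunit RNA. It stood at 10.40, 10.50, 10.50, 10.43 and 9.64 at 48 h and at 9.23, 9.77, 8.34, 9.22 and 9.25 at 72 h in Th17 cells (-1.13 ± 0.23, 2.19-fold lower, adjusted p = 0.00378), overlapping through 48 h replicate 5 and 72 h replicate 2. In Th1 cells it stood at 10.75, 10.80, 10.60, 10.88 and 10.72, then at 10.09, 9.57, 9.69, 10.44 and 9.14, with no overlap (-0.96 ± 0.23, 1.95-fold lower, adjusted p = 0.01). Nop56, a core protein of these particles, differed by -0.94 ± 0.22 in Th17 cells (adjusted p = 0.00675) and -0.73 ± 0.22 in Th1 cells (adjusted p = 0.0282). Its partner Nop58 differed by -1.0 ± 0.33 in Th1 cells (adjusted p = 0.0486) and -0.65 ± 0.33 in Th17 cells, where it was not called.

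Among the box H/ACA proteins, which bind the guide RNAs of pseudouridylation, Nhp2 fell in both WT lineages, by -0.68 ± 0.14 in Th17 cells (adjusted p = 0.00427) and -0.49 ± 0.14 in Th1 cells (adjusted p = 0.0256). Gar1 was called in Th17 cells (-0.60 ± 0.17, no overlap) and not in Th1 cells (-0.52 ± 0.17, adjusted p = 0.0522). Nop10 was called in neither WT lineage (-0.32 and -0.28). Dkc1, the pseudouridine synthase itself, was detected on 10 arrays in all, and its values between 4.56 and 5.91 lay near background.

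Of the 6 tested small-subunit processing genes, Rrp12, Noc4l, Wdr43 and Nob1 fell in WT Th17 cells and Nob1 in WT Th1 cells. Rrp12 and Noc4l were not called in WT Th1 cells. Their means were 12.07 (SD 0.08) and 10.95 (SD 0.27) at 48 h and 11.57 (SD 0.43) and 10.37 (SD 0.52) at 72 h. The Noc4l call in Th17 cells was lost in 10 of 21 alternatives. Wdr43, a part of the early processing complex, differed by -0.80 ± 0.18 in Th17 cells (adjusted p = 0.00556) and by -0.47 ± 0.18 in Th1 cells (adjusted p = 0.083). Nob1, the nuclease that makes the final cut in the small-subunit RNA, differed by -0.50 ± 0.14 in Th17 and -0.45 ± 0.14 in Th1 cells. Nop14 had a difference of -0.03 ± 0.26 in WT Th17 cells. Tsr1, a late maturation factor, had differences of -0.54 ± 0.32 and -0.79 ± 0.32 and was not called.

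Of the 6 tested large-subunit processing genes, Nop2, Wdr74 and Ftsj3 fell in both WT lineages, and Pes1 fell in Th1 cells. In WT Th17 cells Pes1 was not called, with means of 8.51 (SD 0.26) at 48 h and 7.54 (SD 0.96) at 72 h. Wdr74 ran from 10.65 to 11.45 at 48 h and from 9.45 to 10.71 at 72 h in Th17 cells (-1.01 ± 0.19, adjusted p = 0.00246), and from 11.31 to 11.81 and 10.30 to 11.19 in Th1 cells, without overlap (-0.72 ± 0.19, adjusted p = 0.0175). Nop2, a methyltransferase of the large-subunit RNA, differed by -0.85 ± 0.20 in Th17 cells (adjusted p = 0.00683) and -0.78 ± 0.20 in Th1 cells (adjusted p = 0.013). Pes1, which works in a complex with Bop1 and Wdr12, had the largest change of the 32 in Th1 cells. Its values were 8.35, 8.53, 8.56, 8.66 and 8.74 at 48 h and 7.40, 6.14, 6.14, 8.58 and 7.40 at 72 h (-1.43 ± 0.38, 2.70-fold lower, adjusted p = 0.0151), so that 4 of the 72 h arrays lay below every 48 h array and replicate 4 lay among them. Bop1 differed by -0.56 ± 0.28 in those cells and was not called. Rrs1 was the only member with a difference above 0 in WT Th17 cells (0.17 ± 0.32, not called).

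**Figure D3:**
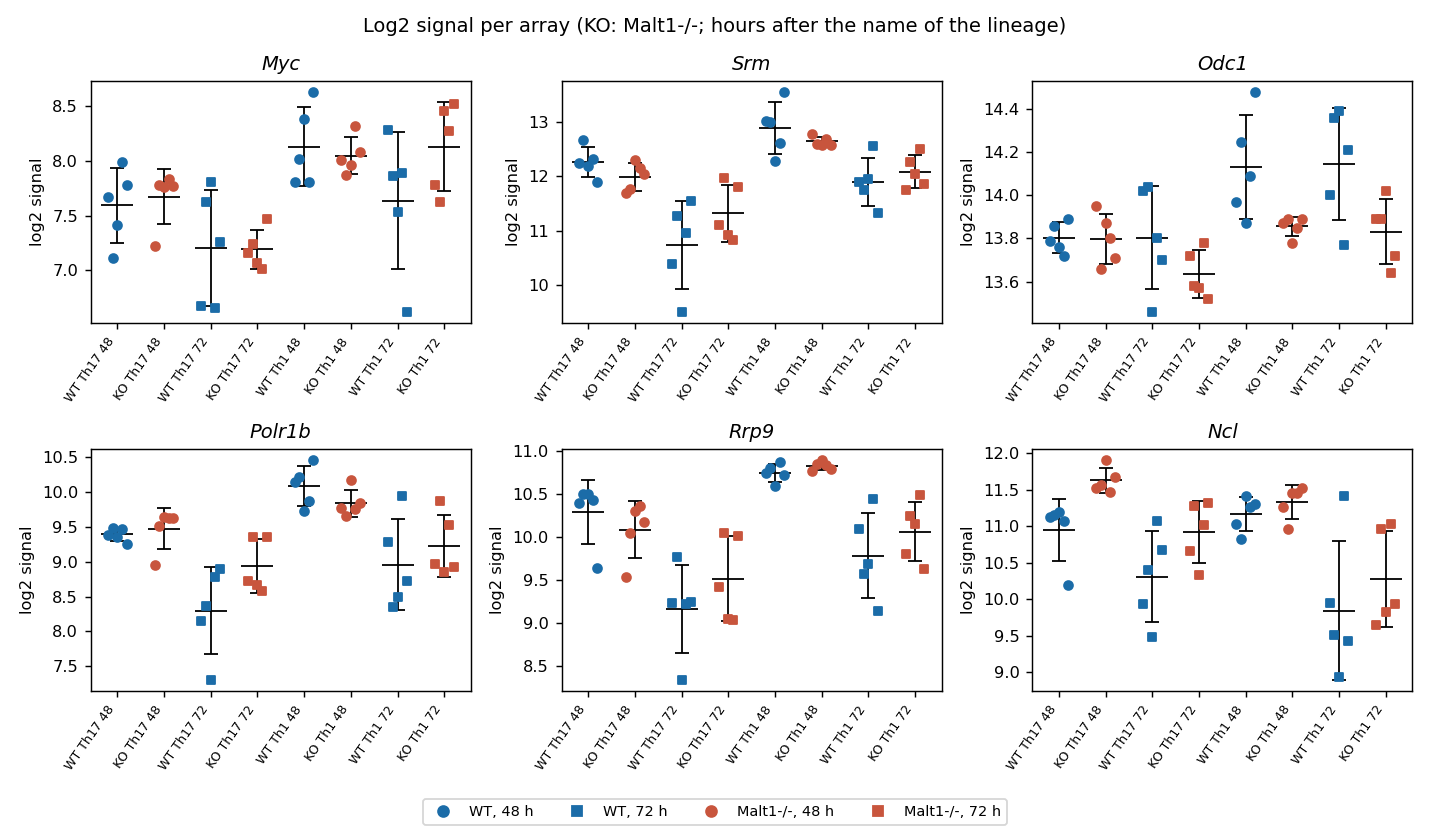
Log2 signal of Myc, Srm, Odc1, Polr1b, Rrp9 and Ncl on each array (points) with the group mean and SD (bars, n = 5), by group. Srm and Polr1b are lower at 72 h than at 48 h without overlap in WT Th17 cells, Odc1 lies between 13.46 and 14.48 throughout, and WT Th1 72 h replicate 4 stands high for Ncl at 11.41.

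Promoters are shown because some of the members fell over time and because Myc with Max binds the E-box. RefSeq windows of 300 bases, 250 before to 50 after the start of the gene in build GRCm38.p6, were held for 30 of the 37 genes. The E-box CACGTG, which reads the same on both strands, stood in the windows of 8 of these 30 genes (26.7%): Sms, Rrn3, Mybbp1a, Utp20, Wdr43, Tsr1, Nop2 and Pes1. It stood in 11.7% of the 8760 tested genes with a window and in 8.09% of all 27025 genes. The related motif CACGCG, or CGCGTG on the other strand, which cannot overlap the E-box, stood in 9 of the 30 genes (30%), 19.6% of tested genes and 10.5% of all genes. The median GC content of the windows was 60.7% for the members, 60.3% for all tested genes and 52.8% for all genes. Myc, Srm, Npm1, Fbl, Rrp12, Bop1 and Rrs1 had no window. Among members with a window that fell over time in a WT lineage, 4 of 17 held the E-box. Among the other tested members with a window, 3 of 9 did. The windows of Nop2 (chr6:125131633-125131932, plus strand), Pes1 (chr11:3963725-3964024, plus strand) and Wdr43 (chr17:71615965-71616264, plus strand) hold an E-box, in capitals. Those of Rrp9 (chr9:106477059-106477358, plus strand) and Wdr74 (chr19:8735589-8735888, plus strand), which fell in both WT lineages, hold none.
Nop2: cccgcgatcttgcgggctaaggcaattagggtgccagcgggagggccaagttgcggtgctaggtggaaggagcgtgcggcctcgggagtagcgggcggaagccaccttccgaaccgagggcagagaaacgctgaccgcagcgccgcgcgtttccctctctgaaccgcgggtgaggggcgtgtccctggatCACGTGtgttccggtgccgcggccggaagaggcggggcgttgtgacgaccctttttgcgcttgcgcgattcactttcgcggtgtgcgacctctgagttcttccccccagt
Pes1: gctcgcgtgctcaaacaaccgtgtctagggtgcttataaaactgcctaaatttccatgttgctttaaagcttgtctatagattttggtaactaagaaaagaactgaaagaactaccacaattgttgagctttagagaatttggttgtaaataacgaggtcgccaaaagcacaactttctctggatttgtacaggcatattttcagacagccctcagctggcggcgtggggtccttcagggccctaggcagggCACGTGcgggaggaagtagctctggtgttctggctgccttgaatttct
Wdr43: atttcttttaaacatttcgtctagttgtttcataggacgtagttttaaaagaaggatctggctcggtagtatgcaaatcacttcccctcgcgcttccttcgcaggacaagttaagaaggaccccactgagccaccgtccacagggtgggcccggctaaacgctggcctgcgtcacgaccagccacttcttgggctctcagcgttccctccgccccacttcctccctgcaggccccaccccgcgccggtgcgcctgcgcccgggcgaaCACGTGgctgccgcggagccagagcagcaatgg
Rrp9: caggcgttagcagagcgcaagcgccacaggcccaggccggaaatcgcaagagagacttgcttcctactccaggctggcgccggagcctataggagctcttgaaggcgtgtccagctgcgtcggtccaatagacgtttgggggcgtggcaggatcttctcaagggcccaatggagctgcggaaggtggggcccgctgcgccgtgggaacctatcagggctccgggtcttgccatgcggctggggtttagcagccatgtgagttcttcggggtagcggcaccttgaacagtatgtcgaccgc
Wdr74: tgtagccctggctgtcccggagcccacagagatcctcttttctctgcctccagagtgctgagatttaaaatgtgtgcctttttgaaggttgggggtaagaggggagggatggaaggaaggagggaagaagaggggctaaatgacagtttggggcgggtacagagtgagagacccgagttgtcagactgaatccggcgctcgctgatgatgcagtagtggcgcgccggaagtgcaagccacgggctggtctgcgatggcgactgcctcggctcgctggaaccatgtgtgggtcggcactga
In these windows the first base of the E-box lies 60 bases before the start of Nop2, 2 bases after the start position of Pes1 and 17 bases after that of Wdr43. Nop2 fell by 0.85 and Rrp9 by 1.13 in WT Th17 cells, with and without the motif in this window. Whether the motif goes with a fall over time was not tested. A match describes the letters of the window only.

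In Malt1-/- cells, limma called 0 of the 32 genes over time in Th17 cells, and 4 fell and 0 rose in Th1 cells. Over all genes, 0.121% were lower and 0.578% higher in Malt1-/- Th17 cells, and 1.8% lower and 4.15% higher in Malt1-/- Th1 cells. The median differences of the 32 genes were -0.43 and -0.46, against 0.01 and -0.02 for all genes. At an unadjusted p under 0.05 there were 15 of the 32 genes in Th17 cells (14.1% of all genes) and 18 in Th1 cells (21.9%). The 4 called genes were Nop10 (-0.54 ± 0.14, adjusted p = 0.0165), Nop2 (-0.71 ± 0.20, adjusted p = 0.0291), Ncl (-1.06 ± 0.32, adjusted p = 0.0404) and Rrp9 (-0.77 ± 0.23, adjusted p = 0.0432). Of 21 alternatives, these calls were lost in 5, 9, 10 and 11 in that order. Rrp9 stood at 10.77, 10.85, 10.90, 10.84 and 10.79 at 48 h and at 9.80, 10.25, 10.15, 10.49 and 9.63 at 72 h, so that its groups did not overlap. Nop10 and Nop2 also did not overlap, while Ncl did. In all, 7 of the 32 genes did not overlap in Malt1-/- Th1 cells (3.08% of all genes) and 6 in Malt1-/- Th17 cells (2.37% of all genes), with 72 h lower in each. The largest difference in Malt1-/- Th17 cells was that of Rrs1 (-1.04 ± 0.32, adjusted p = 0.124).

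The Th1 count went to 0 with median scaling and without Malt1-/- 48 h replicate 3 or 72 h replicate 1 or 5, and to 1 without 48 h replicate 1, 4 or 5 or 72 h replicate 3. It was 16 with array weights, a setting under which 15 fell in Malt1-/- Th17 cells too. The share of all genes called under these alternatives is not given here. These changes of count were thus not read as particular to the tested members. Median scaling moved the share of higher genes among all calls in Malt1-/- Th1 cells from 69.7% to 91.1%.

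A difference in the change over time between genotypes was not called for any of the 32 genes. Over all genes 0.121% were called in Th17 and 0.0746% in Th1 cells, and at an unadjusted p under 0.05 there were 5 and 0 of the 32. The share of all genes at that unadjusted threshold is not given here, so these unadjusted counts have no background beside them. Srm changed by 0.86 ± 0.38 less in Malt1-/- than in WT Th17 cells, with adjusted p = 0.254. The lack of calls in Malt1-/- Th17 cells was thus not shown to differ from the calls in WT.

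Between lineages, the 32 genes were mostly lower in Th17 than in Th1 cells. In WT cells 2 were called lower at 48 h and 9 at 72 h, and in Malt1-/- cells 3 at each time; with the probe used for each gene, 0 were called higher by limma in any of these. Over all genes, 7.26% were lower and 10.2% higher in WT at 48 h, 9.2% and 9.66% in WT at 72 h, 8.72% and 9.83% in Malt1-/- at 48 h, and 9.16% and 11.6% in Malt1-/- at 72 h. The counts of 2 and 3 genes of 32 lie near these background shares, and 9 genes lie above theirs. The median differences were -0.46, -0.37, -0.23 and -0.26 in that order, with medians of all genes between -0.01 and 0.02. Groups did not overlap, with Th17 lower, for 4, 0, 11 and 2 of the 32 genes in that order, against 5.27%, 3.79%, 11.3% and 7.49% of all genes. Of 6 tested myeloid markers, 4 at 48 h and 5 at 72 h were called higher in Malt1-/- Th17 than in Malt1-/- Th1 cells, and 0 in WT cells. Klrd1, the 1 tested natural killer cell marker, was called higher in Th17 cells in all 4 comparisons. It ran from 10.2 to 11.51 in Th17 and from 6.3 to 8.78 in Th1 cells in WT at 48 h (3.27 ± 0.49, adjusted p = 3.63e-06) and from 10.39 to 12.51 and 8.08 to 11.59 in WT at 72 h (2.40 ± 0.49, adjusted p = 0.000401). In Malt1-/- cells it ran from 10.85 to 11.6 and 7.11 to 8.7 at 48 h (3.39 ± 0.49) and from 11.35 to 12.38 and 8.25 to 10.29 at 72 h (3.10 ± 0.49), and only in WT at 72 h did the groups overlap. Of 3 tested B cell markers, Blk was called higher in WT Th17 cells at 48 h (1.71 ± 0.48). Of 6 tested T cell markers, 1 was called lower in Th17 cells in WT at 48 h, 1 higher in WT at 72 h, and 2 lower in Malt1-/- cells at each time. The part of these markers in the differences was not tested. Median scaling moved the share of higher genes among all calls from 58.4% to 31.8% in WT cells at 48 h and from 53% to 70.7% in Malt1-/- cells at 48 h.

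In WT cells at 72 h the calls were Odc1, Srm, Polr1a, Gnl3, Nop56, Gar1, Wdr43, Nop2 and Wdr74. Srm, with the 72 h values given above, differed by -1.16 ± 0.27 (2.24-fold lower in Th17 cells, adjusted p = 0.00201), and the groups overlapped. Wdr43 stood at 9.61, 10.27, 9.58, 9.69 and 9.98 in Th17 cells and at 10.91, 10.22, 10.77, 11.08 and 10.07 in Th1 cells (-0.78 ± 0.18, adjusted p = 0.00158). Gar1 stood at 12.10, 12.38, 11.51, 12.53 and 12.57 in Th17 cells and at 13.09, 12.65, 12.64, 13.55 and 12.52 in Th1 cells (-0.67 ± 0.17, adjusted p = 0.00517). The groups of both genes overlapped in a few arrays. Gnl3 differed by -0.98 ± 0.29 and Nop56 by -0.77 ± 0.22. Odc1 ran from 13.46 to 14.04 in Th17 and from 13.77 to 14.39 in Th1 cells (-0.34 ± 0.12, adjusted p = 0.0409), a call lost in 10 of 20 alternatives. The count at 72 h was 3 without WT Th17 72 h replicate 3, 5 with median scaling and 0 with only these 10 arrays in the fit.

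At 48 h Gar1 was lower in Th17 cells of both genotypes. It stood at 12.87, 12.81, 12.74, 13.06 and 12.64 in WT Th17 and at 13.41, 13.44, 13.38, 13.34 and 13.46 in WT Th1 cells (-0.58 ± 0.17, adjusted p = 0.0166), with no overlap, and differed by -0.53 ± 0.17 in Malt1-/- cells (adjusted p = 0.0307). The WT call of Gar1 at 48 h was kept in all 20 alternatives run. Rrn3 was the other call in WT cells (-0.53 ± 0.19, adjusted p = 0.0481), and it was lost in 10 of the 20 alternatives. Rrp9 and Wdr43 were the other calls in Malt1-/- cells, at -0.74 ± 0.23 and -0.57 ± 0.18. With median scaling 0 of these 3 genes were called in Malt1-/- cells. Without Malt1-/- Th17 48 h replicate 1, which was low for 6 of the 32 genes, 0 were called in Malt1-/- cells, without Malt1-/- Th1 48 h replicate 1 there was 1, and 12 were called with only the 10 arrays compared. In WT cells at 48 h the count ran from 1 to 5 when an array was left out. It was 1 without WT Th17 replicate 3 or 5 or WT Th1 replicate 4 or 5, 4 without WT Th17 replicate 2 or WT Th1 replicate 2, and 5 without WT Th1 replicate 3.

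Myc was called between lineages in Malt1-/- cells at 72 h. Its values were 7.16, 7.24, 7.07, 7.01 and 7.47 in Th17 cells and 7.78, 7.62, 8.46, 8.27 and 8.52 in Th1 cells. The groups did not overlap, and the difference of -0.94 ± 0.24 (1.92-fold lower in Th17 cells, adjusted p = 0.00343) was kept in all 20 alternatives run. In WT cells at 72 h Myc stood at 6.67, 7.62, 7.81, 6.65 and 7.26 in Th17 and at 8.28, 7.86, 7.53, 7.89 and 6.62 in Th1 cells (-0.44 ± 0.24, adjusted p = 0.219), with overlap. The genotypes were not shown to differ in this: the lineage difference was 0.50 lower in Malt1-/- cells (-0.50 ± 0.34, adjusted p = 0.669). Srm (-0.76 ± 0.27) and Rrp12, a factor of small-subunit export (-0.50 ± 0.17), were the other calls in Malt1-/- cells at 72 h. That count was 1 without Malt1-/- Th17 72 h replicate 3 or Malt1-/- Th1 72 h replicate 2 or 4, 5 without Malt1-/- Th17 replicate 2, and 7 without Malt1-/- Th17 replicate 5.

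**Figure D4:**
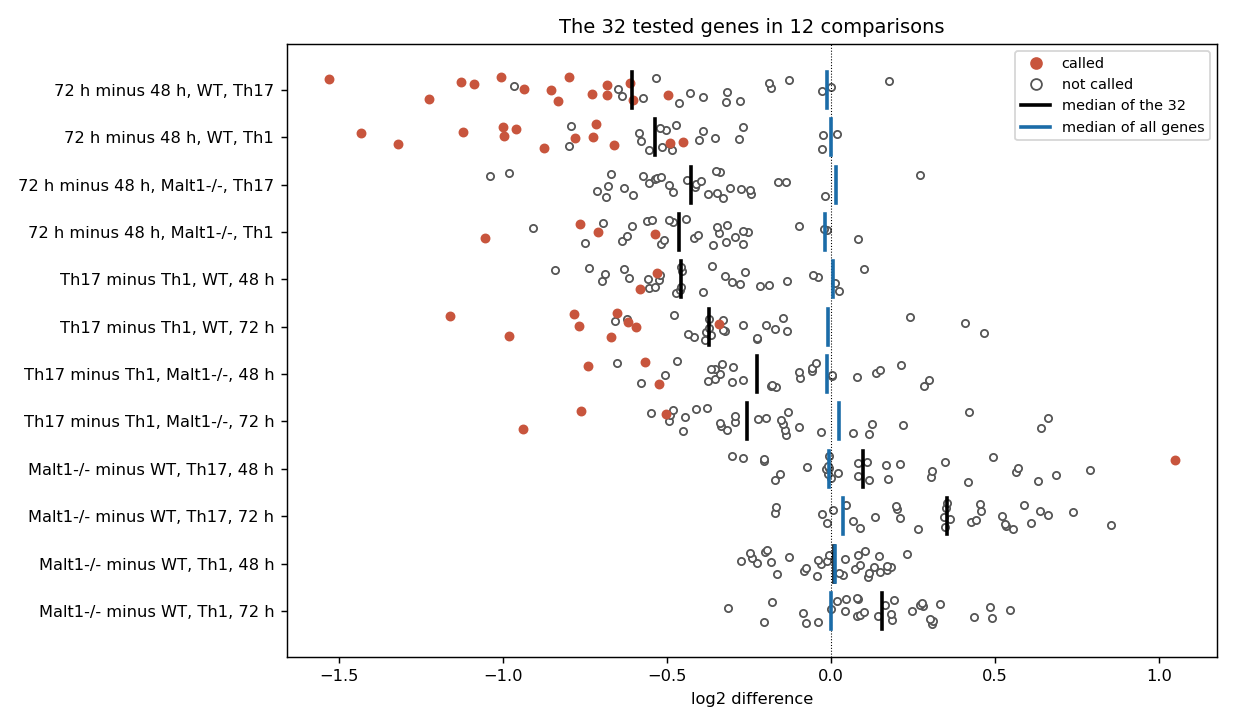
Log2 differences of the 32 tested genes in the 12 comparisons of times, lineages and genotypes (points, filled in red where called), with the median of the 32 genes (black) and of all 10730 genes (blue). The medians of the 32 genes lie at -0.43 to -0.61 for time, -0.23 to -0.46 for lineage and 0.01 to 0.35 for genotype.

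Between genotypes, 1 of the 32 genes was called. Rrs1, a factor of large-subunit assembly, was higher in Malt1-/- Th17 cells at 48 h, and no other gene of the 32 was called higher or lower in either lineage at either time. Over all genes, the shares called higher and lower were 3.41% and 2.97% in Th17 cells at 48 h, 2.89% and 1.53% in Th17 cells at 72 h, 0.783% and 0.606% in Th1 cells at 48 h, and 1.85% and 0.923% in Th1 cells at 72 h. The count of 1 of 32 lies near the background share. Rrs1 had values of 4.99, 6.78, 5.34, 6.15 and 5.81 in WT and 6.58, 7.10, 6.94, 6.49 and 7.22 in Malt1-/- cells (1.05 ± 0.32, adjusted p = 0.0466). The groups overlapped through WT replicate 2, and only 3 of the 5 WT arrays detected it. Its call was lost in 11 of 20 alternatives, without WT replicate 1, 3 or 4 and without any of the 5 Malt1-/- arrays among them (adjusted p up to 0.149).

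The median differences of the 32 genes between genotypes were 0.10, 0.35, 0.01 and 0.15 in that order, against -0.01, 0.04, 0.01 and 0.00 for all genes. At an unadjusted p under 0.05 there were 6, 9, 1 and 2 of the 32, against 23.3%, 21.6%, 12.3% and 16.4% of all genes. Gar1 (0.53 ± 0.17, adjusted p = 0.0704), Nhp2 (0.43 ± 0.14, adjusted p = 0.0772) and Gnl3 (0.85 ± 0.29, adjusted p = 0.0781) had the smallest p-values in Th17 cells at 72 h, and 28 of the 32 differences were above 0 there. At that time 2 were called without WT Th17 replicate 2 or 4 or Malt1-/- Th17 replicate 4, and 1 without WT Th17 replicate 5. In Th17 cells at 48 h Nop14 (0.79 ± 0.26, adjusted p = 0.0547) and Ddx21 (0.63 ± 0.21, adjusted p = 0.0599) were next after Rrs1, and neither overlapped between genotypes. Groups did not overlap, with Malt1-/- higher, for 3 of the 32 genes at 48 h, against 5.35% of all genes. Median scaling moved the median of all genes by 0.18 in Th17 cells at 48 h, from -0.01 to 0.17, and the share of higher genes among all calls from 53.4% to 93.3%. Those shares went from 65.4% to 77.1% in Th17 cells at 72 h, from 56.4% to 38.7% in Th1 cells at 48 h and from 66.7% to 83.7% in Th1 cells at 72 h.

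No difference of the Malt1-/- effect between lineages was called for the 32 genes, at 48 h (0.14% of all genes) or at 72 h (0.699% of all genes). At an unadjusted p under 0.05 there were 2 and 0 of them, given without the share of all genes at that threshold. Odc1 was lower in Malt1-/- than in WT Th1 cells by -0.28 ± 0.12 at 48 h and -0.32 ± 0.12 at 72 h, not called (adjusted p = 0.324 and 0.168).

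Other markers moved with the genotype in Th17 cells. Of 6 tested myeloid markers, 1 was called higher in Malt1-/- Th17 cells at 48 h and 4 at 72 h, and 0 in Th1 cells. S100a8, a neutrophil and monocyte protein, was detected on 0 of 5 WT and 5 of 5 Malt1-/- arrays at 72 h. The summed log2 signal of the 6 markers ran from 29.69 to 32.66 in WT and from 37.16 to 50.92 in Malt1-/- Th17 cells at 72 h, and from 30.41 to 32.13 and 32.17 to 45.04 at 48 h. The Th17 markers Il17a and Il17f were lower in Malt1-/- Th17 cells at both times, and Cd4 was lower at 72 h (-0.89 ± 0.24). Cd8b1, the 1 tested CD8 T cell marker, ran from 10.79 to 11.53 in WT and from 10.4 to 10.67 in Malt1-/- Th17 cells at 72 h, with no overlap, and was called lower (-0.65 ± 0.16, adjusted p = 0.0198). Their part in the differences of the 32 genes was not tested. From 48 h to 72 h in WT cells, 0 myeloid and 0 B cell markers were called, while Cd3d, Cd3g and the Th1 marker Il12rb2 rose in Th17 cells and Cd2 in Th1 cells, and the natural killer cell marker Klrd1 rose in Th1 cells.

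The other genes of the same pathways were taken from lists of 8 kinds, also chosen with earlier results of these data known. Of 37 other small-subunit processing genes, 17 fell in WT Th17 cells from 48 h to 72 h and 15 in WT Th1 cells, and 0 rose. Of 43 other large-subunit processing genes, 19 and 16 fell and 0 rose, and of 11 other genes of RNA polymerase I, 6 and 5 fell and 0 rose. Ubtf, the factor that binds ribosomal DNA for RNA polymerase I, fell by 1.02 ± 0.23 in Th17 and 0.82 ± 0.23 in Th1 cells. Wdr46, of the small-subunit list, differed by -1.18 ± 0.28 and -1.19 ± 0.28, and Noc3l, of the large-subunit list, by -1.10 ± 0.22 and -0.90 ± 0.22.

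Among the ribosomal proteins, the parts of the finished ribosome, calls were few. Of 52 tested, 1 rose (Rpl22, 0.96 ± 0.27) and 0 fell in WT Th17 cells, and 1 fell (Rps15a, -1.08 ± 0.29) and 0 rose in WT Th1 cells, with medians of 0.01 and 0.03. Of 16 proliferation genes, 5 fell in WT Th17 cells and 2 in WT Th1 cells, among them Mcm3, a subunit of the replication helicase, at -0.80 ± 0.18 and -0.55 ± 0.18. In the Myc network Mxd1, a repressor that competes with Myc for the partner Max, rose by 1.19 ± 0.26 in Th17 and 1.05 ± 0.26 in Th1 cells. The related repressors Mxd4 and Mxi1 rose in Th17 cells (1.28 ± 0.40 and 1.57 ± 0.52) and had differences of 1.17 ± 0.40 and 1.37 ± 0.52 in Th1 cells, not called. Of the 9 other polyamine genes, Dhps and Mtap fell in WT Th17 cells, and Mtap fell and Smox, spermine oxidase, rose in WT Th1 cells (Smox 2.61 ± 0.55). Of 11 genes of amino acid transport and growth signalling, 0 was called in Th17 cells and the glutamine carrier Slc1a5 fell in Th1 cells (-0.74 ± 0.24).

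**Figure D5:**
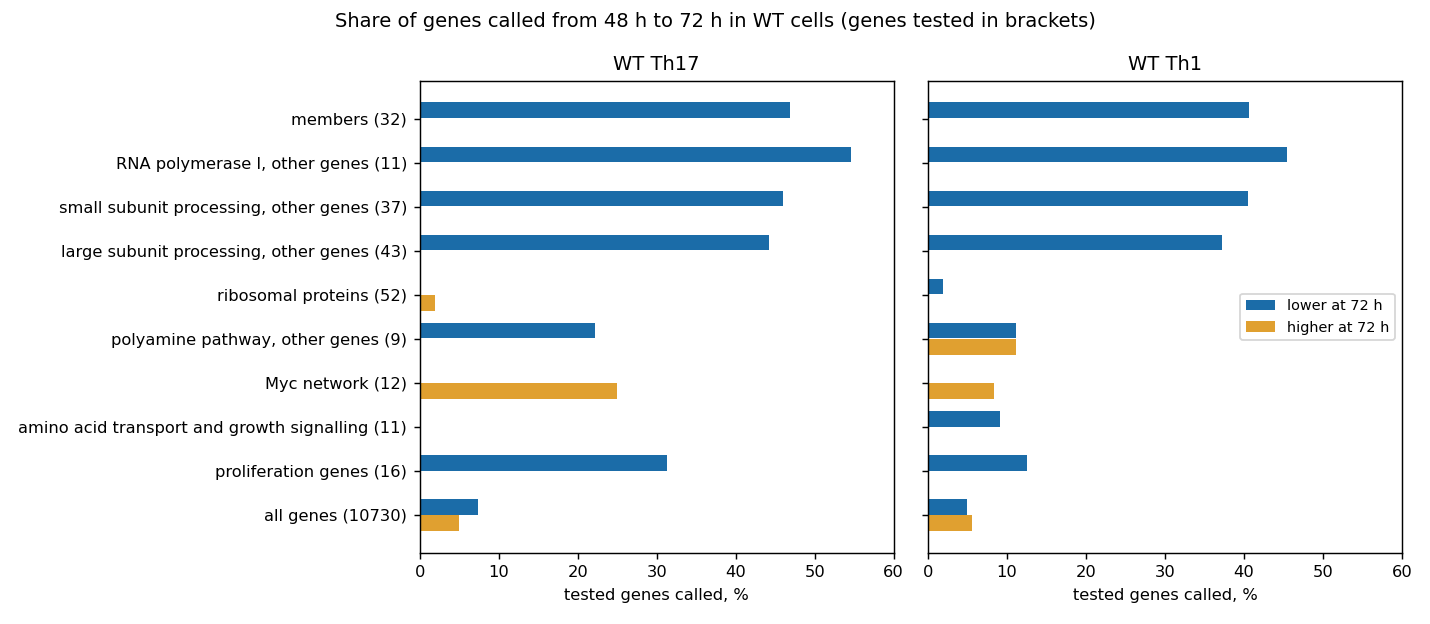
Share of tested genes called lower (blue) and higher (yellow) from 48 h to 72 h in WT Th17 and WT Th1 cells, for the 32 tested genes, 8 related lists and all 10730 genes, with the number tested in brackets. The processing lists and RNA polymerase I reach about the length of the bars of the 32 genes, while ribosomal proteins have 1 call of 52 in each lineage.

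Of the 32 tested genes, 13 had more than 1 kept probe, with 19 further probes in all. Of these probes, 18 differed over time in the same direction as the probe used in each WT lineage, and 8 were called lower in Th17 cells and 10 in Th1 cells, with limma p-values adjusted over all 20739 kept probes, of which 5.82% and 3.8% were called lower. Their median differences were -0.76 and -0.79. In Malt1-/- cells 17 and 16 had the same direction, and 0 and 1 were called, lower, against 0.0482% and 1.17% of kept probes; the medians were -0.46 and -0.54. At an unadjusted p under 0.05 there were 7 and 11 of the 19. Between lineages, 17 of the 19 in WT and 15 in Malt1-/- cells had the direction of the probe used at each time. The counts called lower in Th17 cells were 3 and 6 in WT at 48 h and 72 h and 2 and 0 in Malt1-/- cells, against 5.83%, 7.29%, 7.23% and 7.51% of kept probes. In Malt1-/- cells at 72 h, 7 of the 19 had an unadjusted p under 0.05 in either direction. A further probe of Tsr1 was called higher in Malt1-/- Th17 than in Malt1-/- Th1 cells at 48 h (1.05 ± 0.34, adjusted p = 0.0304). Between genotypes, 14 and 19 had the same direction in Th17 cells at 48 h and 72 h and 13 and 17 in Th1 cells, and 0 were called. The counts at an unadjusted p under 0.05 were 3, 6, 2 and 3 in that order. The share of all kept probes at that threshold was not computed, so the unadjusted counts of probes have no background beside them.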

How the data were processed

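The deposited raw table holds the bead-summarised signal intensity of each probe, without scaling between arrays, and a detection fraction that equals 1 minus the detection p-value, per the file headers and the values. The authors' deposited value table holds log2 values that were quantile-normalised and centred on each probe's median, since the values rebuilt from the raw signals in that way differed by at most 0.0149. That table served as an alternative. All 40 arrays, 5 in each of 8 groups from the labels, entered the analysis. The software behind the tables was not given in the sources used.

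Raw signals were background-corrected with neqc (limma 3.58.1, R 4.3.3), which uses the detection p-values, an offset of 16, quantile normalisation and log2. Probes with a detection p under 0.05 on 5 or more of 40 arrays were kept, in all 20739 of 45281. The platform table gives 1 symbol to 34885 probes, several to 18 and none to 10378. A gene with several kept probes was represented by the brightest on average. limma fitted 8 group means to 10730 genes, and 16 comparisons were tested with empirical Bayes and Benjamini-Hochberg adjustment within each comparison. The fit was tested on simulated data. Alternatives covered background correction, scaling, the detection filter, the probe choice, the authors' value table, the arrays in the fit, a replicate block, array weights and each array left out. The members and gene lists were chosen with earlier results of these data known. Every member could be named, with full values for the 6 called members with the smallest p and for the largest and smallest difference in a comparison. From each other list up to 4 genes with the smallest p could be named.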

Additional observations from a re-analysis of the deposited data

Results flagged for a closer look

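In 23 of 256 groups of 5 values of a tested gene, 1 array lay far from the other 4. Chance marks about 1 in 20 such groups, and genes measured on the same array are not independent. Values below are log2 signals, with the range of the other 4 arrays in brackets.

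WT Th17 48 h replicate 5 was low for 8 genes, and it is among the 8 arrays nearer to the mean of a different group. These were Mybbp1a at 11.58 (12.30 to 12.54), Ncl at 10.20 (11.07 to 11.19), Rrp9 at 9.64 (10.40 to 10.50) and Nop14 at 9.23 (10.02 to 10.27). The others were Rrp12 at 11.22 (11.84 to 12.05), Nop2 at 9.49 (9.97 to 10.09), Bop1 at 9.39 (10.23 to 10.51) and Wdr74 at 10.65 (11.25 to 11.45). Malt1-/- Th17 48 h replicate 1 was low for 6 genes. These were Myc at 7.22 (7.76 to 7.83), Polr1b at 8.96 (9.51 to 9.64) and Nolc1 at 5.25 (6.20 to 6.41). The others were Rrp12 at 11.71 (11.92 to 11.98), Pes1 at 7.90 (8.76 to 8.93) and Wdr74 at 10.32 (10.93 to 11.12).

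The other 9 values were spread over 8 arrays. In WT Th1 cells at 48 h they were Sms on replicate 5 at 5.31 (4.51 to 4.72), Polr1a on replicate 1 at 11.23 (11.55 to 11.66), Dkc1 on replicate 3 at 5.67 (4.94 to 5.11) and Nhp2 on replicate 3 at 13.02 (13.34 to 13.42). In Malt1-/- Th17 cells at 72 h they were Nop14 on replicate 3 at 9.32 (10.15 to 10.35) and Tsr1 on replicate 4 at 8.53 (7.73 to 7.91). In Malt1-/- Th17 cells at 48 h it was Nob1 on replicate 4 at 10.67 (10.24 to 10.35). In WT Th1 cells at 72 h it was Tsr1 on replicate 3 at 6.91 (8.56 to 9.12). In WT Th17 cells at 72 h it was Pes1 on replicate 3 at 5.85 (7.75 to 8.18). What set these arrays apart was not tested. No difference of the Malt1-/- effect between lineages or times was called for the 32 genes.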

How the results depend on the processing

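Counts are of the 32 tested genes called. The share of all genes called under each alternative is not given beside them. A change of count was thus not read as particular to these genes. The 791 of 1032 recomputed gene results that kept their call, and the 241 that lost it, all kept their direction. The genes called over time in WT cells whose calls were lost only with the compared arrays fitted alone were Srm, Rrp9 and Wdr74 in Th17 cells and Polr1b, Ncl and Rrp9 in Th1 cells. With the 10 compared arrays alone, counts went from 15 and 13 to 0 over time in WT Th17 and Th1 cells, from 9 to 0 between WT lineages at 72 h, from 3 to 12 between Malt1-/- lineages at 48 h, from 0 to 2 over time in Malt1-/- Th17 cells and from 1 to 4 between genotypes in Th17 cells at 48 h. With median scaling they were 3 and 7 over time in WT Th17 and Th1 cells, 0 over time in Malt1-/- Th1 cells, 5 and 5 between WT lineages at 48 h and 72 h, 0 and 1 between Malt1-/- lineages, and 2 between genotypes in Th17 cells at 48 h. Median scaling moved the median of all genes by over 0.1 in the genotype comparison of Th17 cells at 48 h (to 0.17), in the lineage comparisons at 48 h (to -0.12 in WT and 0.09 in Malt1-/- cells) and in 2 differences of the Malt1-/- effect (to 0.23 between lineages at 48 h and 0.12 between times in Th1 cells).

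Between genotypes in Th17 cells at 48 h the count was 0 without background correction, without a detection filter and with the authors' value table, 3 with the stricter filter, 5 with array weights and 2 when the 8 arrays nearer to a different group were left out. At 72 h it was 6 without those arrays. Between WT lineages at 48 h it was 6 without background correction and with the authors' value table, 1 without a filter, 5 with the stricter filter or array weights and 4 with the mean of all kept probes. Between Malt1-/- lineages it was 9 with array weights and 5 without the 8 arrays at 48 h, and at 72 h 5 without background correction or with the authors' value table and 7 with array weights. Over time in Malt1-/- Th1 cells it was 2 without a filter or with the mean of probes, 16 with array weights and 14 without the 8 arrays. In Malt1-/- Th17 cells it was 15 with array weights and 3 without the 8 arrays, in WT Th1 cells 20 and 23, and in WT Th17 cells 23 without the 8 arrays. The causes were not tested.

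When each array was left out in turn, counts ran from 9 to 17 and from 3 to 21 over time in WT Th17 and Th1 cells, from 0 to 0 and from 0 to 6 in Malt1-/- cells, from 1 to 5 and from 3 to 13 between WT lineages, from 0 to 4 and from 1 to 7 between Malt1-/- lineages, and from 0 to 1, 0 to 2, 0 to 0 and 0 to 1 between genotypes. For the differences between effects they were 0 throughout.

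With a replicate block in the fit of 40 arrays the counts were 3 between genotypes in Th17 cells at 48 h, 6 between WT lineages at 48 h, 10 at 72 h, 15 and 15 over time in WT cells and 4 in Malt1-/- Th1 cells. With a replicate block within genotype and lineage, counts over time were 12 and 9 in WT Th17 and Th1 cells and 0 and 2 in Malt1-/- cells. The labels share only numbers: residuals of 140 same-numbered pairs had a median correlation of 0.014 (-0.416 to 0.513), and 6 of 40 arrays correlated best with their own number. The 8-array removal and the block within genotype and lineage were chosen after seeing the data. A slide block was not run, since the files used give no slide. Signals near background limit Sms and Dkc1.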

Other observations

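Over time in Malt1-/- Th1 cells, Smox, spermine oxidase, rose by 2.39 ± 0.55 (limma adjusted p = 0.00748), Azin2, an inhibitor of the ornithine decarboxylase antizyme, by 1.63 ± 0.20 (adjusted p = 5.58e-06) and Riok1, a kinase of small-subunit maturation, by 1.19 ± 0.17 (adjusted p = 1.79e-05). Of the 37 tested small-subunit genes in the list that holds Riok1, 1 rose and 2 fell there, against 4.15% and 1.8% of all genes. Between genotypes in Th17 cells at 72 h, 2.89% of all genes were called higher in Malt1-/- cells and 1.53% lower. Of 16 proliferation genes, 5 were called higher there and 0 lower, with a median difference of 0.38. The myeloid markers S100a8 (4.50 ± 0.63) and S100a9 (3.46 ± 0.55) were higher in the same comparison, and their part in this was not tested.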
